A study of Mus musculus with 15 samples.

Results

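The genes described here encode the chromobox (Cbx) and polyhomeotic-like (Phc) subunits of canonical polycomb repressive complex 1 (PRC1). They were taken from the table by name: Cbx2, Cbx6, Cbx7, Cbx8, Phc1, Phc2 and Phc3. Of these 7 genes, 6 were found among the 14392 genes of the expression table, and Cbx6 was not analysed here. The series concerned USP16, a deubiquitinase that removes ubiquitin from histone H2A, and asked what its loss from the oocyte does to the embryo. The mark it removes is the one that PRC1 places.

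RNA-seq was performed on mouse zygotes and 2-cell embryos of C57BL/6 background. WT embryos came from Usp16+/+ mothers. The embryos called cKO came from Usp16 fl/fl;Gdf9-Cre mothers, in which the Gdf9 promoter drives Cre in oocytes from the primordial follicle stage on. All fathers were WT, so cKO embryos came from oocytes with Usp16 deleted but carried an intact paternal allele. All mothers were 21 to 23 days old and superovulated with PMSG and hCG, the males were 10 to 12 weeks old, and zygotes were collected 28 h after hCG. Each of the 8 libraries, 2 for each genotype at each stage, was made from 10 pooled embryos. Nothing stated that the 2 libraries of a group came from separate litters, so p-values measure only the spread between these libraries. Values are FPKM, fragment numbers scaled to transcript length and to the mapped fragments of the library, in which any value under 1 had been set to 1. A gene at this floor had 1 FPKM or less. The depth behind each value is unknown.

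Canonical PRC1 is assembled on the ubiquitin ligases RING1 or RNF2, with a PCGF protein, a CBX protein and a PHC protein. The chromodomain of these CBX proteins binds trimethylated lysine on histone H3, the mark set by PRC2, and brings the complex to chromatin already marked. PHC proteins polymerise through a SAM domain and hold PRC1-bound chromatin in clusters. Variant PRC1 lacks both CBX and PHC proteins and carries RYBP or YAF2 in their place.

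In the mm9 build with the GENCODE M1 annotation, Cbx2 lies on the plus strand at chr11:118884276-118892584 and Cbx8 on the minus strand at chr11:118897619-118902283. Their facing 3′ ends are 5.03 kb apart. Cbx7 is at chr15:79746237-79801549 on the minus strand, 81.1 kb from Cbx6. Phc1 is at chr6:122267749-122290579 and Phc3 at chr3:30798217-30868337, both on the minus strand, and Phc2 is at chr4:128331982-128430125 on the plus strand. No exon of the 6 genes overlapped an exon of another annotated gene.

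Cbx7 and Cbx8 were the genes listed at the floor in all zygote libraries and above it in all 2-cell libraries, so their promoters are shown. Each is the RefSeq window (GRCm38.p6) from 250 bases before to 50 bases after the annotated start. Each window had 1 exact match in mm9, at chr15:79763027-79763326 for Cbx7 and chr11:118902178-118902477 for Cbx8, and is printed on the gene's own minus strand, 5′ to 3′, with CG dinucleotides in capitals. The Cbx8 window spans the 5′ end of the GENCODE gene, and the Cbx7 window lies inside the longer GENCODE gene model.
Cbx7: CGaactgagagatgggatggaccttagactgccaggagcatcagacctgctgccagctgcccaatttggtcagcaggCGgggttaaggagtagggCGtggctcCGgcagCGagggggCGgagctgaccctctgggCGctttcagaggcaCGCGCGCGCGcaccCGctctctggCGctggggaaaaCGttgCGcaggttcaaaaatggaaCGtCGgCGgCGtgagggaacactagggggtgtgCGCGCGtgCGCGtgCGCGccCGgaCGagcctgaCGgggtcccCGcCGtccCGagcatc
Cbx8: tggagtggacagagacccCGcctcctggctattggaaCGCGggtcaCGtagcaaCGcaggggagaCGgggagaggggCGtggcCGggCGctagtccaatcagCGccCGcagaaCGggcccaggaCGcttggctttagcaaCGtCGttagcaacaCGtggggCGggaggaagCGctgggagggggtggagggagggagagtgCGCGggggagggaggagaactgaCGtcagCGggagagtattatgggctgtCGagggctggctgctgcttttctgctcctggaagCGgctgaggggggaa
The Cbx7 window held 33 CG dinucleotides, more than 91.4% of the 32851 mouse windows of the same length, and the Cbx8 window held 24, more than 80% of them. The median over all windows was 7. Motifs were searched as exact letters on both strands. CCAAT was found once in Cbx7, 190 bases upstream of the start, and in Cbx8 at 220 and 156 bases upstream, and it occurs in 37.4% of all windows. GGGCGG, whose letters include one of the CG dinucleotides, was found 136 bases upstream in Cbx7 and 92 bases upstream in Cbx8, and occurs in 35.7% of windows. TATAAA, present in 13.6% of all windows, was in neither. Among the other genes, the window held 9 CG dinucleotides in Phc1 and 15 in Phc3, and the 3 annotated starts of Phc2 held 19, 2 and 45. Cbx2 was not matched in the promoter table.

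Usp16 was checked first. It was measured at 184 and 187 FPKM in WT zygotes and at 16.8 and 22.0 FPKM in cKO zygotes. At the 2-cell stage it was at 168 and 183 FPKM in WT and at 168 and 84.8 FPKM in cKO embryos. The zygote groups did not overlap, in the direction of the labels, although the adjusted p of this difference was 0.191 (limma with Benjamini-Hochberg adjustment). The deletion removes part of the gene in frame, so FPKM over all exons can include what remains of the transcript. In the annotation 193 exonic bases of Usp16 overlap Cct8 on the opposite strand.

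The libraries differed in ways that bear on every comparison below. The 2 cKO 2-cell libraries differed by more than 3-fold for 1912 genes, against 20 to 199 genes in the other groups, and the second of them had a summed FPKM of 770989 against 547752 to 593317 in the other libraries. Genes at the floor numbered 4242 to 4747 in zygotes, 1642 to 1716 in WT 2-cell embryos and 3684 to 4240 in cKO 2-cell embryos. All 10 oocyte and early embryo markers were measured, with a summed level of 16736 to 18276 FPKM in zygotes, 7463 to 9081 in WT and 7054 to 11425 in cKO 2-cell embryos. Of 6 markers of the 2-cell stage 3 were measured, and they summed to 4.45 to 7.99 FPKM in zygotes, 332 to 539 in WT and 126 to 133 in cKO 2-cell embryos. Of 12 cumulus and granulosa markers 3 were measured, with a sum of 24.3 to 28.7 FPKM in zygotes, 4.38 to 10.3 in WT and 3 to 3.32 in cKO 2-cell embryos, where 3 is the sum of 3 genes at the floor. Foxl2 and Tnfaip6 were at the floor in all zygotes, whereas Cyp19a1 was at 22.3 to 26.7 FPKM there and made up most of the sum. In 2-cell embryos Cyp19a1 was at 1 and 1.78 FPKM in WT and at the floor in cKO. Of 5 oviduct markers 3 were measured. They summed to 3 to 3.05 FPKM in zygotes, 56.8 to 92.7 in WT and 79.4 to 116 in cKO 2-cell embryos. The 2-cell sums came mostly from Epcam, at 44.4 and 82.4 FPKM in WT and 75.2 and 114 in cKO. Krt8 was at 9.91 and 9.01 FPKM in WT 2-cell embryos and at the floor in cKO. Ovgp1 was at 2.46 and 1.31 FPKM in WT and at 3.24 and 1 in cKO 2-cell embryos. The 1 blood marker measured of 3, Hba-a1, was at 1 to 8.66 FPKM. The part of these differences in the results below was not tested.

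Cbx2, a chromobox protein that compacts nucleosomes, was expressed at both stages and was the gene of this set that differed most between cKO and WT 2-cell embryos on the log2 scale. It was measured at 22.8 and 19.4 FPKM in WT zygotes, 15.4 and 16.1 in cKO zygotes, 22.2 and 29.6 in WT 2-cell embryos, and 7.93 and 4.90 in cKO 2-cell embryos. Both cKO 2-cell libraries were below all 6 other libraries. The mean was 25.9 ± 5.23 FPKM (SD, n = 2) in WT and 6.42 ± 2.14 (SD, n = 2) in cKO 2-cell embryos, 4.04-fold lower. On the log2(FPKM + 1) scale used for every test, Cbx2 fell by 1.88 (SE 0.28, 95% interval -2.55 to -1.21, adjusted p = 0.00574, limma with Benjamini-Hochberg adjustment over all genes). The call held when any 1 library was left out, and was lost when the model was fitted on only the 4 libraries compared (adjusted p = 0.0882, limma), a fit that called 0 of all genes, although 3416 lower and 819 higher genes had p under 0.05 before adjustment. In these pooled embryos, fewer embryos expressing Cbx2 and a lower level in each embryo cannot be told apart.

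In zygotes the cKO values of Cbx2 were also both below the WT values, at a ratio of means of 0.747. The difference of -0.40 (SE 0.28, 95% interval -1.07 to 0.28) did not pass the test (adjusted p = 1, limma). From zygote to 2-cell embryo, the Cbx2 groups overlapped in WT, and the log2 difference was 0.28 (SE 0.28, adjusted p = 0.440, limma). In cKO embryos the mean FPKM was 2.45-fold lower at the 2-cell stage. The log2 difference was -1.21 (SE 0.28, 95% interval -1.88 to -0.53, adjusted p = 0.0112, limma). Without cKO zygote replicate 1 or 2 that adjusted p was 0.0585 or 0.0659. The interaction, the genotype difference at the 2-cell stage minus that in zygotes, was -1.48 (SE 0.39, 95% interval -2.43 to -0.53) and missed the threshold at an adjusted p of 0.0599 (limma). Over 13 alternative settings it ranged from -1.78 to -1.02. It passed only where 1 of the cKO 2-cell libraries was left out, which leaves that group with no spread of its own.

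Cbx8, which binds the same histone mark and is a partner of canonical PRC1 in many cell types, was at the floor of 1 FPKM in all 4 zygote libraries. It was measured at 16.8 and 19.3 FPKM in WT 2-cell embryos and at 8.81 and 14.2 FPKM in cKO 2-cell embryos. All 2-cell libraries were therefore above all zygotes, and both cKO values were below both WT values. Against the floor, the 2-cell mean was at least 18.0-fold higher in WT and at least 11.5-fold higher in cKO. The log2 difference between stages was 3.25 in WT (SE 0.26, adjusted p = 0.000262) and 2.61 in cKO (SE 0.26, adjusted p = 0.000445, limma). Between genotypes at the 2-cell stage, the mean was 1.57-fold lower in cKO, with a log2 difference of -0.64 (SE 0.26, 95% interval -1.28 to 0.0045, adjusted p = 0.120, limma). This difference did not pass the test with all libraries. Without cKO 2-cell replicate 2 it was -0.95 and passed (adjusted p = 0.00911, limma). Without replicate 1 it was -0.32 (adjusted p = 0.114, limma), and after median-ratio scaling -0.19 (adjusted p = 0.731, limma).

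Cbx7, a chromobox protein known for its part in embryonic stem cell self-renewal, was likewise at the floor in all 4 zygote libraries. It was measured at 3.81 and 3.34 FPKM in WT and at 5.68 and 3.67 FPKM in cKO 2-cell embryos. The genotypes overlapped, and the higher cKO library was above both WT libraries. The stage difference was at least 3.58-fold in WT and at least 4.68-fold in cKO. On the log2 scale it was 1.19 in WT (SE 0.19, adjusted p = 0.00297) and 1.48 in cKO (SE 0.19, adjusted p = 0.00105, limma). The difference between cKO and WT 2-cell embryos was 0.29 (SE 0.19, 95% interval -0.17 to 0.75, adjusted p = 0.290, limma). It passed without cKO 2-cell replicate 2, at 0.55 (adjusted p = 0.0120, limma), and after scaling the libraries by their median ratios, at 0.66 (adjusted p = 0.0157, limma). Without cKO 2-cell replicate 1 it was 0.03 (adjusted p = 0.790, limma).

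**Figure D1:**
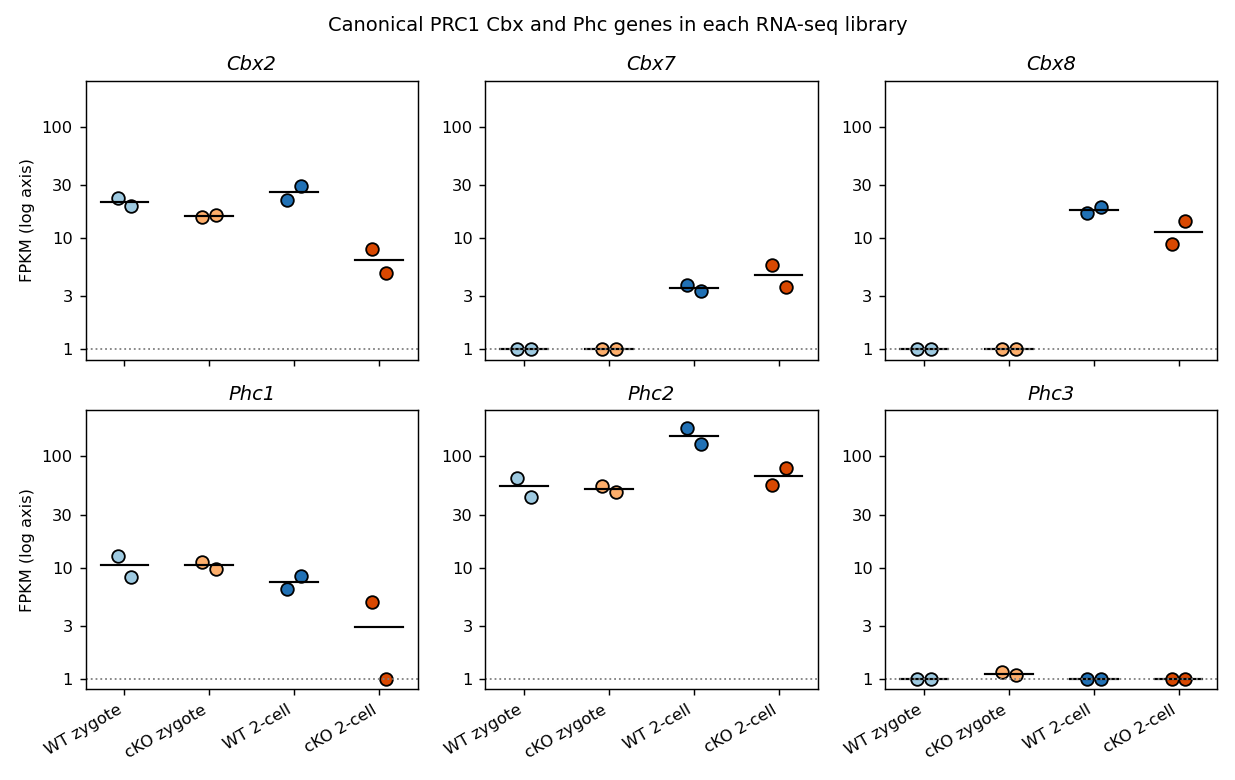
FPKM of the 6 Cbx and Phc genes in each library on a log axis, with 1 point for each library, a bar at the mean of the 2 libraries of a group and a dotted line at the floor of 1 FPKM. Cbx2 was at 7.93 and 4.90 FPKM in cKO 2-cell embryos, below the 6 other libraries, and Cbx7 and Cbx8 were at the floor in all zygotes.

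Phc2 was the most abundant of the 6 genes in every group. It was measured at 64.1 and 43.2 FPKM in WT zygotes, 54.4 and 48.3 in cKO zygotes, 178.7 and 128.6 in WT 2-cell embryos, and 55.3 and 78.5 in cKO 2-cell embryos. Both WT 2-cell libraries were above all 6 others, while the cKO 2-cell values lay within or just above the range of zygotes. The mean was 154 ± 35.5 FPKM (SD, n = 2) in WT and 66.9 ± 16.4 (SD, n = 2) in cKO 2-cell embryos, 2.30-fold lower. On the log2 scale Phc2 fell by 1.19 (SE 0.30, 95% interval -1.92 to -0.46, adjusted p = 0.0291, limma). That call was lost without some of the libraries, while the log2 difference stayed between -1.44 and -0.94 whichever library was left out. The adjusted p (limma) was 0.0685 and 0.0686 without cKO zygote replicate 1 and 2, which leave the difference itself at -1.19, 0.141 and 0.0629 without WT 2-cell replicate 1 and 2, and 0.0830 without cKO 2-cell replicate 1. After median-ratio scaling the log2 difference was -0.72 (adjusted p = 0.195, limma).

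Between stages the mean FPKM of Phc2 rose 2.86-fold in WT, and the log2 difference was 1.51 (SE 0.30, adjusted p = 0.00712, limma). Without WT 2-cell replicate 1 that adjusted p was 0.0550. In cKO embryos the ratio of means was 1.30 and the log2 difference 0.36 (SE 0.30, 95% interval -0.37 to 1.09, adjusted p = 0.369, limma), although both 2-cell values were above both zygote values. The interaction of -1.15 (SE 0.42, 95% interval -2.18 to -0.12) did not pass the test (adjusted p = 0.129, limma), so the stage difference was not shown to differ between genotypes. In zygotes the genotypes overlapped, with a ratio of means of 0.957 and a log2 difference of -0.04 (95% interval -0.77 to 0.69).

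Phc1 was intermediate in zygotes and low in cKO 2-cell embryos. It was measured at 12.8 and 8.16 FPKM in WT zygotes, 11.3 and 9.69 in cKO zygotes, 6.43 and 8.37 in WT 2-cell embryos, and 4.87 and 1 in cKO 2-cell embryos, the last value being the floor. Both cKO 2-cell libraries were below all others, and the 2 libraries were themselves 4.87-fold apart. The log2 difference between cKO and WT 2-cell embryos was -1.28 (SE 0.53, 95% interval -2.56 to -0.01 before adjustment), which did not pass after adjustment (adjusted p = 0.116, limma). Without cKO 2-cell replicate 1 it was -2.06 and passed (adjusted p = 0.0108, limma). Without replicate 2, the library at the floor, it was -0.51 (adjusted p = 0.288, limma), and after median-ratio scaling -1.01 (adjusted p = 0.242, limma).

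From zygote to 2-cell embryo the WT groups of Phc1 overlapped, with a log2 difference of -0.43 (SE 0.53, adjusted p = 0.531, limma). In cKO embryos Phc1 fell by 1.74 (SE 0.53, 95% interval -3.02 to -0.47, adjusted p = 0.0319, limma). Without cKO 2-cell replicate 2, in which Phc1 was at the floor, the difference was -0.97 (adjusted p = 0.0624, limma). The adjusted p (limma) was also above the threshold without either WT zygote (0.0565 and 0.0564), either cKO zygote (0.148 and 0.112) or either WT 2-cell library (0.0932 and 0.0934). The difference itself stayed at -1.74 without a WT library, which changes only the shared estimate of the spread, and was -1.64 and -1.85 without a cKO zygote. In zygotes the genotypes overlapped, at a ratio of means of 1.00.

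Phc3 was at the floor in 6 of the 8 libraries and was measured at 1.14 and 1.07 FPKM in cKO zygotes. These values lie just above the floor, and no comparison of Phc3 passed the test on the values as deposited with all libraries. Its difference of -0.08 between cKO stages passed after median-ratio scaling (adjusted p = 0.0376, limma) and without WT 2-cell replicate 1 or 2 (adjusted p = 0.0308 and 0.0309, limma), which do not enter that difference and change only the shared estimate of the spread.

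**Figure D2:**
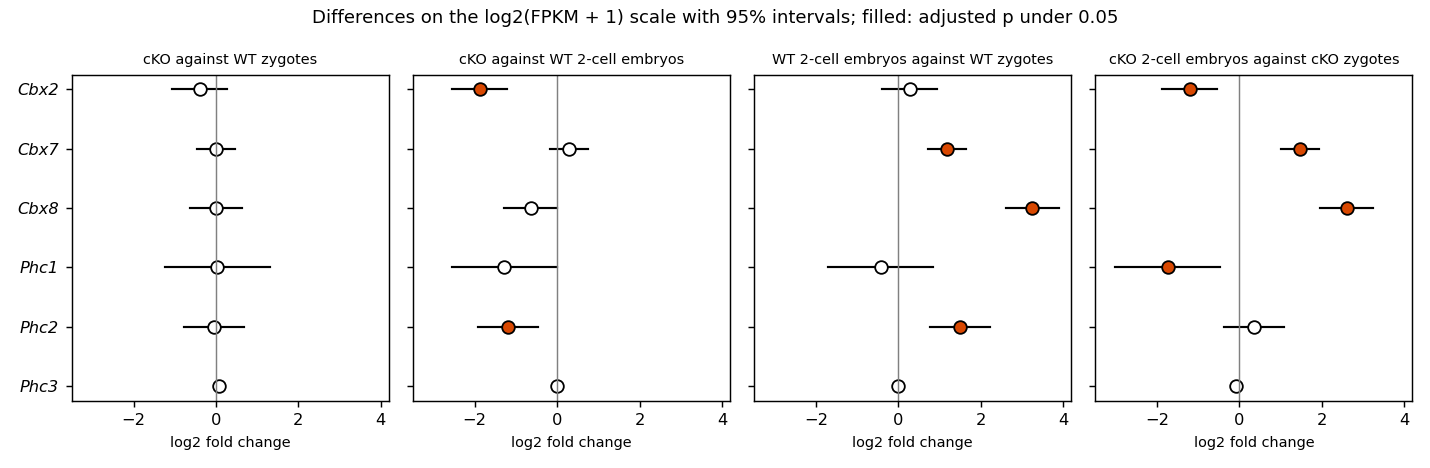
Difference in log2(FPKM + 1) for the 6 genes in each of 4 comparisons, with the limma estimate as a point, its 95% interval as a line, and filled points where the adjusted p was under 0.05. At the 2-cell stage the filled points are Cbx2 at -1.88 and Phc2 at -1.19, and no point is filled in zygotes.

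Counted together, the genes called between genotypes were lower in cKO 2-cell embryos, which was also the direction of most calls over all genes. Those called between stages were higher in WT, again the more frequent direction over all genes. In cKO they included both directions, as over all genes. In zygotes, limma called 0 of the 6 genes between cKO and WT, also at an unadjusted p under 0.05, against a background of 0% of all genes called lower and 0.0208% called higher. Over all genes the unadjusted counts in that comparison were 84 lower and 324 higher. In 2-cell embryos 2 of 6, Cbx2 and Phc2, were lower in cKO and 0 were higher, against 24.6% and 6.16% of all genes. The median log2 difference was -0.91 over the 6 genes and -0.30 over all genes. Median-ratio scaling moved the median over all genes to -0.03 and the number of all genes called from 3538 lower and 887 higher to 1987 lower and 1516 higher. Under that scaling the calls among these genes were Cbx2 lower and Cbx7 higher.

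From zygote to 2-cell embryo in WT, 3 of 6 (Cbx7, Cbx8 and Phc2) were higher and 0 lower, against 34.2% and 15.5% of all genes, with a median of 0.73 against 0.27 over all genes. Median-ratio scaling changed the numbers called over all genes from 2224 lower and 4921 higher to 2811 lower and 3920 higher, and left the same 3 calls. In cKO embryos 2 of 6 (Cbx7 and Cbx8) were higher and 2 (Cbx2 and Phc1) lower, against 24.6% and 27.1%, with a median of 0.14 against 0. The interaction called 0 of 6, against 11.8% of all genes in either direction. Before adjustment 2 of the 6 (Cbx2 and Phc2) had p under 0.05, as did 3664 lower and 769 higher genes of all 14392 (limma). The comparisons share libraries with each other, so their results are not independent.

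The series' own rule, a ratio of mean FPKM above 3 in either direction, called fewer of the genes. In zygotes it called 0 of 6, against 0.0486% of all genes lower and 0.104% higher. In 2-cell embryos it called Cbx2 as lower in cKO, against 13.5% lower and 2.84% higher. Between stages in WT it called Cbx7 and Cbx8 as higher, against 26% higher and 8.78% lower. In cKO embryos it called Cbx7 and Cbx8 as higher and Phc1 as lower, against 22.8% higher and 19.2% lower. Phc1 in that comparison was 3.58-fold lower, with 1 library at the floor.

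The order of the levels changed with stage and genotype. FPKM is per length of transcript, so levels of different genes can be set side by side. In zygotes of both genotypes the order was Phc2, Cbx2, then Phc1, each separated from the next by non-overlapping libraries, with Cbx7, Cbx8 and Phc3 at or just above the floor. In WT 2-cell embryos it was Phc2, Cbx2, Cbx8, Phc1, Cbx7 and Phc3, again with no overlap between neighbours. In cKO 2-cell embryos Cbx8 stood above Cbx2, and from there the neighbours Cbx2 and Cbx7, Cbx7 and Phc1, and Phc1 and Phc3 overlapped. Phc2 had a higher mean than 95.1% of all genes in WT and 88.7% in cKO 2-cell embryos, and Cbx2 a higher mean than 75.4% and 56.6%.

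The make-up of the sum of Cbx2, Cbx7 and Cbx8 shifted accordingly. Cbx6 was not analysed, so this sum is only part of the polycomb Cbx genes. Cbx2 accounted for 91.3% ± 0.918 (SD, n = 2) of the summed FPKM of Cbx2, Cbx7 and Cbx8 in WT zygotes and for 88.7% ± 0.310 (SD, n = 2) in cKO zygotes, with the other genes counted at their floor. Its share was 54.3% ± 3.40 (SD, n = 2) in WT and 28.5% ± 9.77 (SD, n = 2) in cKO 2-cell embryos. Both cKO 2-cell libraries were below both WT 2-cell libraries, which were below all zygotes. The ratio of Cbx8 to Cbx2 was 0.755 and 0.650 in WT 2-cell embryos and 1.11 and 2.89 in cKO 2-cell embryos, so Cbx8 exceeded Cbx2 in both cKO libraries and in neither WT library. With 2 libraries against 2, an exact permutation test of a single value cannot give a p below 0.333, and none was run.

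The summed level of Cbx2, Cbx7 and Cbx8 was 23.1 ± 2.43 FPKM (SD, n = 2) in WT zygotes and 47.5 ± 6.65 (SD, n = 2) in WT 2-cell embryos. In cKO it was 17.7 ± 0.488 (SD, n = 2) in zygotes and 22.6 ± 0.223 (SD, n = 2) in 2-cell embryos, a gap between stages that was smaller than in WT on the values as deposited. The cKO 2-cell sums lay close together although Cbx8 made up 39.3% of one and 62.3% of the other. Median-ratio scaling was not applied to the sums of either family. Its divisors were 1.23 in both WT 2-cell libraries and 0.988 and 0.794 in the cKO 2-cell libraries. For the Phc genes the sum was 65.1 ± 18.1 FPKM (SD, n = 2) and 162 ± 34.1 (SD, n = 2) in WT, and 62.9 ± 5.52 (SD, n = 2) and 70.9 ± 13.7 (SD, n = 2) in cKO. Phc2 made up 82.4% and 81.6% of the Phc sum in WT and cKO zygotes and 94.6% and 94.0% in WT and cKO 2-cell embryos. The ratio of Phc2 to Phc1 was 11.4 and 78.5 in the 2 cKO 2-cell libraries, the second with Phc1 at the floor.

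**Figure D3:**
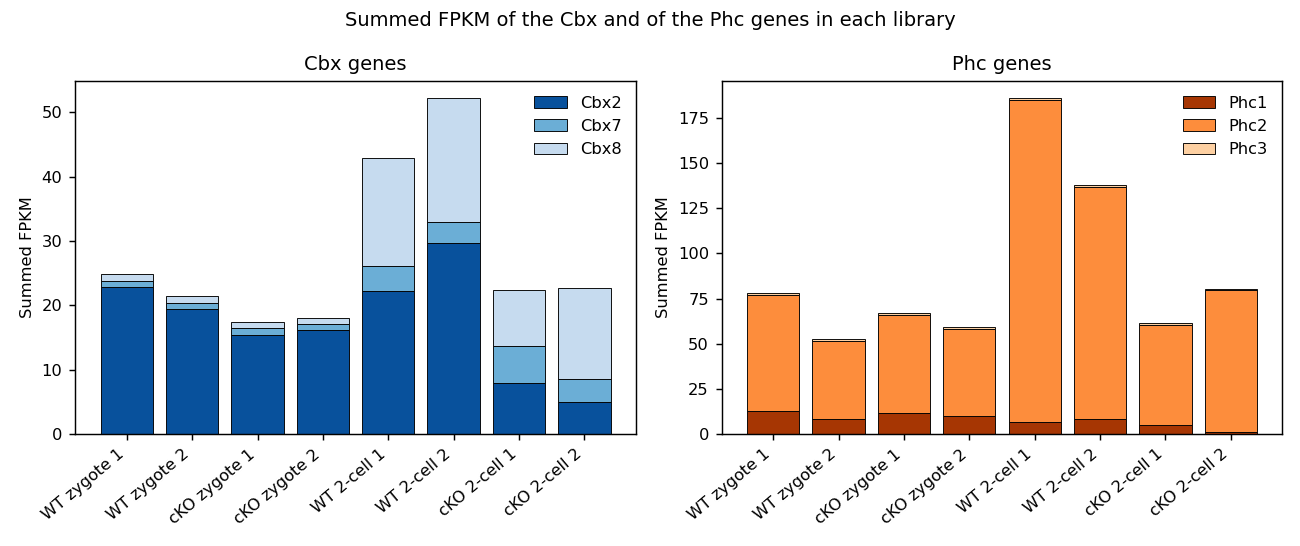
Summed FPKM of Cbx2, Cbx7 and Cbx8 (left) and of Phc1, Phc2 and Phc3 (right) in each library, stacked by gene, with genes at the floor drawn at 1 FPKM. The Cbx sums average 47.5 FPKM in WT and 22.6 FPKM in cKO 2-cell embryos, and the Phc sums 162 and 70.9 FPKM.

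Other genes of canonical PRC1 were read against these. Of 6 listed, 4 were measured, and Ring1 and Pcgf2 were not analysed here. At the 2-cell stage 2 of the 4 were lower in cKO and 0 were higher, with a median log2 difference of -1.07, against 24.6% of all genes lower, 6.16% higher and a median of -0.30. Scmh1, a SAM-domain protein that associates with PHC proteins, was measured at 12.3 and 11.8 FPKM in WT and at 2.19 and 1.19 FPKM in cKO 2-cell embryos. It fell by 2.30 on the log2 scale (SE 0.35, adjusted p = 0.00640, limma), and Scml2 fell by 1.36 (SE 0.36, adjusted p = 0.0353, limma).

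The catalytic core was not called between genotypes. Rnf2, the ubiquitin ligase, was measured at 93.3 and 115 FPKM in WT and at 118 and 137 FPKM in cKO 2-cell embryos, with a log2 difference of 0.29 (SE 0.31, 95% interval -0.46 to 1.04, adjusted p = 0.506, limma). Bmi1, the PCGF subunit that pairs with it, was at 402 and 452 FPKM in WT and at 215 and 280 FPKM in cKO, with a difference of -0.79 (SE 0.31, 95% interval -1.56 to -0.03 before adjustment, adjusted p = 0.107, limma). Both were above Cbx2 in every library.

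Of 15 variant PRC1 genes, 2 were lower (Auts2 and Yaf2) and 1 higher (Pcgf1) in cKO 2-cell embryos, with a median of -0.47. This compares with 24.6% of all genes lower and 6.16% higher. Yaf2, the subunit found in variant complexes in place of a CBX protein, fell from 24.7 and 26.8 FPKM in WT to 8.59 and 8.29 FPKM in cKO (adjusted p = 0.00834, limma). Rybp, its alternative in these complexes and named after its values were seen, was at 28.6 and 18.8 FPKM in WT and at 37.3 and 34.7 FPKM in cKO, a log2 difference of 0.61 (SE 0.24, adjusted p = 0.104, limma). Of 11 PRC2 genes 1, Phf1, was lower and 1, Mtf2, was higher, against the same 24.6% and 6.16% of all genes. Phf1 and Mtf2 encode related Polycomb-like accessory proteins. Phf1 fell by 2.42 (SE 0.23, adjusted p = 0.00198, limma), and Mtf2 rose by 1.03 (SE 0.21, adjusted p = 0.0157, limma).

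The chromobox genes outside polycomb encode HP1 proteins, which bind methylated lysine on histone H3 in heterochromatin. Cbx1 (HP1 beta) was measured at 52.8 and 38.4 FPKM in WT and at 10.8 and 8.14 FPKM in cKO 2-cell embryos, and fell by 2.15 (SE 0.23, adjusted p = 0.00254, limma). Cbx3 (HP1 gamma) was at 316 and 335 FPKM in WT and at 643 and 447 FPKM in cKO, a difference of 0.72 (SE 0.29, adjusted p = 0.108, limma). Cbx5 (HP1 alpha) was at 13.3 and 16.4 FPKM in WT and at 22.0 and 20.4 FPKM in cKO, a difference of 0.49 (SE 0.21, adjusted p = 0.133, limma). In zygotes Cbx1 was at 107 to 125 FPKM, Cbx3 averaged 21.3 in WT and 25.8 in cKO, and Cbx5 was at 6.44 to 8.74.

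**Figure D4:**
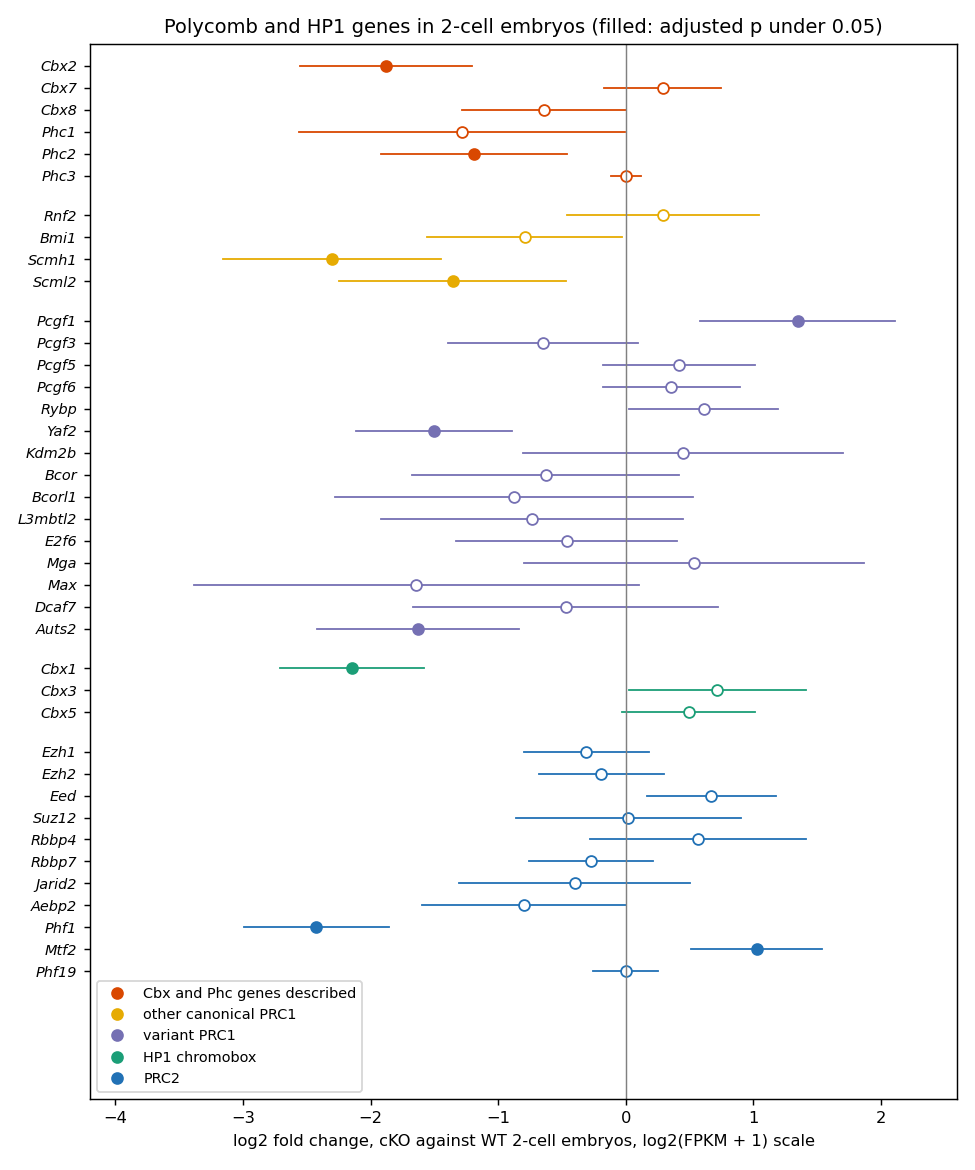
Log2 difference between cKO and WT 2-cell embryos on the log2(FPKM + 1) scale for the 6 genes and for other polycomb and HP1 genes, as the limma estimate with its 95% interval, filled where the adjusted p was under 0.05. Among the largest filled negative values are Phf1 at -2.42, Scmh1 at -2.30, Cbx1 at -2.15 and Cbx2 at -1.88.

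Genes with the most similar pattern over the 8 libraries, by Pearson correlation of log2(FPKM + 1) with no test, were Pramef8 and Haus4 for Cbx2 (r = 0.989 and 0.987). For Phc2 they were Rit1 and Fiz1 (0.990 and 0.982), and for Phc1 Gfm2 and Atp6v1b2 (0.994 and 0.992). Purb and Rlf for Cbx7, and B020004J07Rik and Tdpoz1 for Cbx8, had r of 0.9998, 0.9996, 0.9998 and 0.9998. Genes with r above 0.9 numbered 416 for Cbx2, 551 for Phc1 and 805 for Phc2, and 2266 and 2253 for Cbx7 and Cbx8, whose zygote values are all at the floor. The 8 points share 4 groups and the same libraries, so the values describe a shared profile over groups.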

How the data were processed

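Transcriptomes were measured in 8 Smart-seq2 libraries, and the 7 histone ChIP samples of the series were not used. Per the labels and the methods, the authors mapped reads to mm9 with TopHat2 2.1.1 and deposited FPKM from Cufflinks 2.2.1, with values under 1 set to 1 and genes under 1 in all libraries removed. FPKM gives no depth, so no counting interval can be given.

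From these values, log2(FPKM + 1) was fitted across all 14392 genes in limma 3.58.1 (R 4.3.3) with a mean for each of the 4 groups, 4 residual degrees of freedom and a trended prior. Calls were made at an adjusted p under 0.05 (Benjamini-Hochberg over all genes). Genes at the floor throughout a group have no spread there, which makes their standard errors too small. The series' own rule, a ratio of means above 3, was applied beside it. The script was tested on simulated data. Named genes were the members, Usp16, the 2 genes most like each member with at least 4 libraries above the floor, Rnf2, Bmi1, Scmh1, the HP1 genes and up to 2 called genes of a list. Pcgf1 was named because it made up a count of 1. Members and lists were chosen with earlier results of these data known. An item withheld for evaluation is not reported here. Figures were drawn with matplotlib 3.10.9.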

Additional observations from a re-analysis of the deposited data

How the results depend on the processing

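Alternatives were a replicate block, no pseudocount, a mean FPKM of at least 3, median-ratio scaling, a fit on the 4 libraries compared, and each library left out. In cKO against WT 2-cell embryos limma called 2 of the 6 genes with all libraries, 0 on only the 4 libraries compared and 1 to 4 with 1 library left out. The fit on those 4 libraries called 0 of all 14392 genes, although before adjustment 3416 lower and 819 higher genes had p under 0.05, so the calls of Scmh1, Scml2, Auts2, Yaf2, Pcgf1, Phf1, Mtf2 and Cbx1 were lost as well. In cKO 2-cell embryos against cKO zygotes it called 4, then 5 after median-ratio scaling, which added Phc3, 2 on only the 4 libraries compared and 2 to 4 with 1 left out. In WT 2-cell embryos against WT zygotes it called 3, and 2 to 3 with 1 left out. The interaction called 0, and 0 to 3 with 1 left out. Over all genes it called 1474 lower and 227 higher, 1 or 2 in all without a zygote library, and 3517 lower and 1100 higher without cKO 2-cell replicate 1. By ratio of means, 1 gene passed 3-fold between genotypes at the 2-cell stage, 3 at a threshold of 2, 0 when every pair of libraries had to pass, 0 after median-ratio scaling and 1 to 2 with 1 library left out. Between stages in WT 2 passed, and 1 with a pseudocount of 1 or after median-ratio scaling. Between stages in cKO 3 passed, and 1 with a pseudocount of 1. The direction turned for 3 differences, of which none was called: Cbx2 between WT stages under median-ratio scaling (-0.044), and Phc1 (-0.27 to 0.33) and Phc2 (-0.32 to 0.24) between zygote genotypes with 1 library left out. The mean filter removed Cbx7 and Phc3, whose calls it could not test. The cause of these changes was not tested.

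With the replicate block the counts were 0 in zygotes, 2 in 2-cell embryos, 3 between WT stages, 4 between cKO stages and 0 for the interaction, and the same genes were called. Deviations of replicate 1 from its group mean were correlated over genes between WT and cKO, with r = 0.497 in zygotes and r = -0.239 in 2-cell embryos. With 2 libraries in a group, replicate 2 deviates by the same amount the other way, so the sign depends on how libraries were numbered. A crossed replicate block, added after seeing the data, gave the same counts. The floor of 1 FPKM limits what can be said of Cbx7, Cbx8 and Phc3 in zygotes.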
